A study of Homo sapiens with 6 samples.

Results

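MYC, its obligate partner MAX, and the MAX-binding repressors MXI1, MXD1 and MXD4 were measured in GM00156, a human cell line of the Coriell repository, after translation and then transcription had been stopped. Probes were taken whose single gene symbol in the array's annotation is 1 of these 5 names. This gave 7 of the 14080 probes on the array: 1 each for MYC (probe 11020), MXD1 (probe 2700) and MXD4 (probe 119), and 2 each for MAX (probes 266 and 2216) and MXI1 (probes 1384 and 6368). All 7 were measured on all 6 arrays, and none was lost to a filter.

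MYC is a transcription factor of the basic helix-loop-helix leucine zipper class. It binds DNA only as a dimer with MAX, at short palindromes called E-boxes, and there it activates genes of growth, ribosome production and metabolism. MXD1, MXD4 and MXI1 also pair with MAX at E-boxes, but recruit SIN3 and histone deacetylases and so act as antagonists of MYC. MYC mRNA is among the best known short-lived transcripts. AU-rich elements in its tail and an instability element in its coding region speed its decay, and the latter acts while ribosomes travel along the message. MAX mRNA is known as comparatively stable.

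Cells received emetine, an alkaloid that stops ribosome movement, at 100 µg/ml, or no emetine, for 10 h. Actinomycin D, which blocks RNA synthesis, was then given to treated and untreated cells at 5 µg/ml, and mRNA was taken 0, 10 and 30 min, 1 h and 8 h later. For each harvest a two-colour array set treated against untreated cells (1 array per harvest, 5 in all), and a sixth array carried mRNA of treated cells in both channels without actinomycin D (self-self). Per the labels, untreated mRNA carried Cy5 and treated mRNA Cy3, 4 µg of each, but which channel stands in the numerator of the deposited ratio is not given. Values are therefore described as positive or negative log2 ratios, and a change of sign throughout is possible. On the 0 min array the channel names give treated and untreated RNA, whereas the description names the treated RNA for either channel. No cell type is named in the labels, and ratios carry no expression level that markers could be read from. Less RNA per cell and fewer cells of a type cannot be told apart in such samples.

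The arrays differed in spread. The robust SD of the log2 ratios was 0.12 on the self-self array and 0.44, 0.92, 0.78, 0.53 and 0.86 on the harvest arrays in order of time. The highest value on the 1 h array was 2.10, against 5.94 to 7.14 on the other 4 harvest arrays, so large positive ratios were missing at 1 h for all probes. Values are given here as deposited, and beside them the percentile of a probe among the 13151 probes measured at all 5 harvests, which does not depend on an array's spread.

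The promoters of the members' own genes were read for E-boxes, and whether the factors act there was not tested. RefSeq promoter entries (GRCh38.p14) were matched for 4 of the 5 members, and the 250 bases before each listed start site were searched for the canonical E-box CACGTG and for the general form CANNTG. Both patterns read the same on either strand, and every CACGTG is also a CANNTG. MXD4 was the only matched member with CACGTG, a motif found in 6.34% of 35116 promoter windows of this length. MAX had no CANNTG at either of its 2 start sites, MXD1 had 3, and MXI1 had 1 at the first of its 3 start sites and none at the others. CANNTG occurred in 61.8% of all windows. The MXD4 window is shown for its CACGTG, and the MXI1 window since MXI1 was the repressor whose mean passed the test. Capitals mark CANNTG.
MXD4, chr4:2262110-2262359, minus strand: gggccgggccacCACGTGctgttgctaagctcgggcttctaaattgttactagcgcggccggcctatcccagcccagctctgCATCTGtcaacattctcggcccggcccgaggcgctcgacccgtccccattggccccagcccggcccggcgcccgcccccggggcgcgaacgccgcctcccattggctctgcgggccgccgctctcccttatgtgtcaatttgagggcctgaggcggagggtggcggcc
MXI1, first start site, chr10:110207355-110207604, plus strand: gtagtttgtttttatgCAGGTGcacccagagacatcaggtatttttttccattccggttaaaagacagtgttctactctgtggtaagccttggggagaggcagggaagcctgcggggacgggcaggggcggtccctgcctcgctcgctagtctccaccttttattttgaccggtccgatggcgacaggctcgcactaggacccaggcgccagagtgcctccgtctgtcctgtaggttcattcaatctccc

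CACGTG was also present in the windows of MNT, another MAX-binding repressor, and of MLX, the MAX-like partner of the glucose-sensing MLXIP factors. The 26 bases around each of these 3 sites are set side by side, with the E-box in capitals.
MXD4, chr4:2262332-2262357, minus strand: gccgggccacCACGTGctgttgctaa
MNT, chr17:2401238-2401263, minus strand: ctgcccgggcCACGTGtgcgcgcgcc
MLX, chr17:42567040-42567065, plus strand: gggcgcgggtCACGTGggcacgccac
The sites lay 238, 193 and 50 bases before the listed starts of MXD4, MNT and MLX. Their mean log2 ratios over the harvests were -0.18 for MXD4, 0.28 for MNT and -0.45 for MLX, and of these MLX alone passed the limma test of the mean. A match is a description of letters and not of binding, and a link between the sites and the ratios was not tested.

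MYC was the member with the largest ratios. Its log2 ratio was 0.34 in the 0 min harvest, 1.23 after 10 min, 3.39 after 30 min, 1.15 after 1 h and 4.15 after 8 h, and -0.05 on the self-self array. The value was positive on all 5 harvest arrays, as were 36.2% of probes, smallest before the transcription block had run and largest at its end. As a ratio between the channels this corresponds to 1.26-fold, 2.34-fold, 10.5-fold, 2.22-fold and 17.7-fold in order of harvest. The 1 h value broke the sequence, 2.24 below the 30 min value. In rank MYC stood at percentiles 74.5, 91.1, 99.3, 97.8 and 99.4 of the arrays in order of harvest. At 1 h it was thus among the highest probes of an array without large positive ratios. In units of each array's robust SD from its median, MYC was at 0.65, 1.24, 4.14, 2.08 and 4.63. The dip at 1 h remained on this scale.

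**Figure D1:**
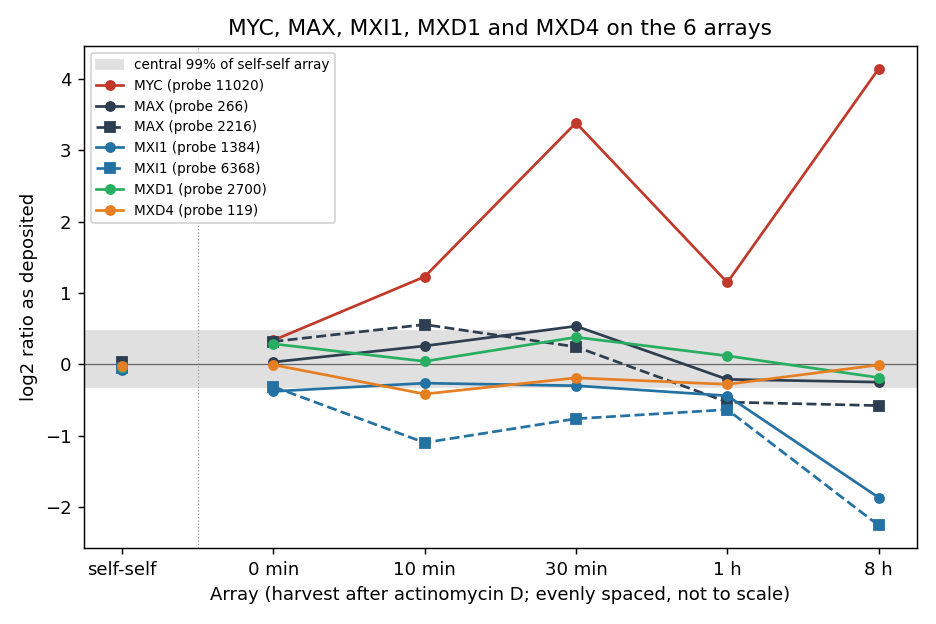
Log2 ratio as deposited (vertical axis) of the 7 probes on the self-self array and at the 5 harvests (horizontal axis, evenly spaced and not to scale); solid and dashed lines of 1 colour are 2 probes of a gene, and the grey band is the central 99% of the self-self array, from -0.32 to 0.47. MYC lay above the band from 10 min on and reached 4.15 at 8 h, while both MXI1 probes ended at -1.87 and -2.26.

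The mean over the 5 harvests was tested with limma, a linear model with moderated variances, fitted to all 13151 probes with a line over harvest time. The spread behind its p-values is that of 5 single arrays around a line, and the cultures behind the arrays may be shared. MYC had a mean of 2.05 (SE 0.33, 5 arrays, 95% interval 1.29 to 2.81, limma adjusted p = 0.00132), which placed it 255th from the top of all probes. In the same fit 61.3% of all probes passed, 35.0% with a positive and 26.3% with a negative mean, so passing alone does not set a probe apart. The MYC call held without each harvest in turn, with means from 1.53 to 2.48. It did not hold when the single self-self array entered the fit as the level to compare with (limma adjusted p = 0.201). In that fit 0 probes passed with a positive mean and 2 with a negative one by limma's adjusted p.

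MYC ranked higher among all probes in its course than in its mean. From 0 min to 8 h its log2 ratio changed by 3.81, the 7th largest positive change of 13151 probes, where 10.4% of probes changed by more than 1 log2 unit upward. The slope on log2(1 + min / 10) was 0.61 per unit (SE 0.17), the 11th highest of all, but it did not pass (limma adjusted p = 0.162, with 3 residual degrees of freedom). No probe passed the slope test on all 5 arrays by limma, while 1870 probes (14.2%) had an unadjusted p under 0.05. Without the 1 h array the MYC slope was 0.65 and passed (limma adjusted p = 0.0124), as did 3.98% of probes on the positive side. It did not pass without any of the other 4 harvests. With all arrays scaled to equal spread 29 probes passed, but the MYC slope of 0.47 did not (limma adjusted p = 0.177).

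MXI1, a MAX-binding repressor first described as a MAX interactor, lay on the other side. Probe 1384 was at -0.38, -0.26, -0.30, -0.44 and -1.87 in order of harvest, and at -0.08 on the self-self array. Probe 6368 was at -0.31, -1.10, -0.76, -0.64 and -2.26, and at -0.06 on the self-self array. Both probes were negative on all 5 harvests, as were 26.4% of probes. On both the 8 h value stood apart from the rest, at percentiles 1.44 and 0.715 of that array. The probes are annotated with the same transcript record, yet they differed by 0.83 at 10 min and by as little as 0.07 at 0 min.

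The mean of MXI1 was -0.65 (SE 0.15, 95% interval -0.99 to -0.31, limma adjusted p = 0.00618) for probe 1384 and -1.01 (SE 0.16, 95% interval -1.39 to -0.64, limma adjusted p = 0.00129) for probe 6368. Both means passed, as did 26.3% of all probes on the negative side. Without the 8 h array probe 1384 was at -0.35 and no longer passed (limma adjusted p = 0.0639). Probe 6368 was then at -0.70 and passed (limma adjusted p = 0.0109). With the self-self array in the fit neither probe passed (limma adjusted p = 0.399 and 0.227). From 0 min to 8 h the log2 ratios fell by 1.49 and 1.95, the 212th and 80th largest falls, where 5.06% of probes fell by more than 1 log2 unit. The slopes of -0.28 and -0.30 did not pass (limma adjusted p = 0.156 and 0.160). Without the 1 h array probe 6368 passed at -0.32 (limma adjusted p = 0.0330), as did 0.464% of probes on the negative side, and probe 1384 did not (limma adjusted p = 0.0508). Most of the MXI1 course came from a single harvest. The step from 1 h to 8 h was -1.43 for probe 1384 and -1.62 for probe 6368. In percentile these probes went from 20.2 and 12.6 at 1 h to 1.44 and 0.715 at 8 h. MYC had a step of 3.0 across the same interval, but from the 1 h array without large positive ratios. The percentile of MYC went from 97.8 to 99.4, near the upper end, where percentiles can move little. In robust SD units MYC went from 2.08 to 4.63, and the MXI1 probes from -0.93 to -2.34 and from -1.30 to -2.79.

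MAX, the partner that every member needs to bind DNA, changed sign along the course, so that its means over the harvests were near 0. Probe 266 was at 0.03, 0.26, 0.54, -0.21 and -0.25 in order of harvest, and probe 2216 at 0.32, 0.56, 0.25, -0.53 and -0.58. On the self-self array they were at -0.03 and 0.03. Probe 2216 left the central 99% of the self-self array at 3 of 5 harvests, above it at 10 min and below it at 1 h and 8 h, and probe 266 left it at 1, above it at 30 min. Both probes were positive at 0, 10 and 30 min and negative at 1 h and 8 h, an order of signs that 176 of 13151 probes (1.34%) had and that was looked for after the values were seen. Neither mean passed, at 0.07 (SE 0.14, 95% interval -0.25 to 0.39, limma adjusted p = 0.661) and 0.00 (SE 0.14, 95% interval -0.32 to 0.33, limma adjusted p = 0.986). The signs of these means turned under other scalings, to -0.02 and -0.09 with each array centred on its median. The slope of probe 2216 was -0.20 (SE 0.07, limma adjusted p = 0.251) and that of probe 266 was -0.08 (SE 0.07, limma adjusted p = 0.714). The largest step of both probes lay between 30 min and 1 h, at -0.75 and -0.78. Their percentiles went from 70.1 to 32.4 for probe 266 and from 54.9 to 16.5 for probe 2216. In robust SD units these probes went from 0.50 to -0.49 and from 0.13 to -1.10. MYC had its only fall there, onto the array without large positive ratios. Its percentile went from 99.3 to 97.8, and its value from 4.14 to 2.08 in robust SD units.

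MXD1, a repressor that rises as cells leave the cycle and differentiate, had the values 0.29, 0.04, 0.38, 0.12 and -0.19 in order of harvest and -0.04 on the self-self array. None of its 5 harvest values left the central 99% of the self-self array. Its mean was 0.13 (SE 0.12, 95% interval -0.14 to 0.40, limma adjusted p = 0.359). MXD4, a related repressor, was at -0.01, -0.42, -0.19, -0.28 and -0.01 in order of harvest and at -0.02 on the self-self array. It was negative on all 5 harvests, as were 26.4% of probes, and only the 10 min value left the self-self range. Its mean was -0.18 (SE 0.12, 95% interval -0.45 to 0.09, limma adjusted p = 0.216). After scaling all arrays to equal spread the mean was -0.27 and passed (limma adjusted p = 0.0369), as did 33.3% of probes on the negative side. Means that do not pass are not shown to be 0, and the intervals of MXD1 and MXD4 leave room for differences of up to 0.40 and 0.45 log2 units in size.

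**Figure D2:**
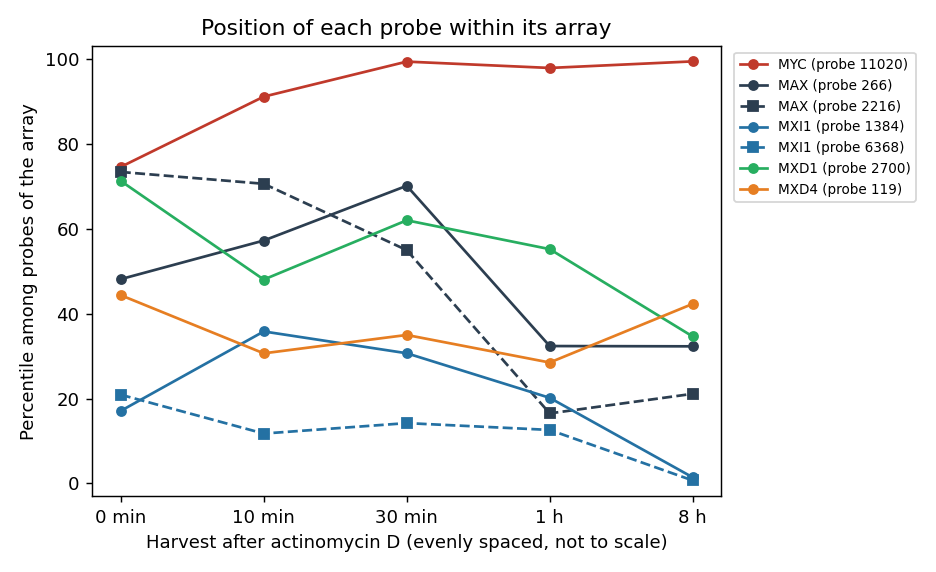
Percentile of each of the 7 probes among the 13151 probes of the same array (vertical axis) at the 5 harvests (horizontal axis, evenly spaced). MYC moved from percentile 74.5 to 99.4 and was at 97.8 at 1 h, and the MXI1 probes reached percentiles 1.44 and 0.715 at 8 h.

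Set against the self-self array, 1, 4, 3, 4 and 4 of the 7 probes lay outside its central 99% in order of harvest. The shares of all probes outside were 39.4%, 67.3%, 63.1%, 45.6% and 63.4%, and 4 of 7 at 1 h was the only harvest at which the members' share lay above that of all probes. With 7 probes, of which 4 are pairs of 1 gene, these shares do not set the members apart. The single probe outside at 0 min was MXI1 probe 1384, and MYC was outside at the other 4 harvests. MXI1 probe 6368 was also outside at every harvest but the 0 min one.

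With probes of a gene averaged, the order of the means was MYC at 2.05, MXD1 at 0.13, MAX at 0.04, MXD4 at -0.18 and MXI1 at -0.83. MYC exceeded MXD1 on 5 of 5 arrays, by 0.05 to 4.33 with a mean of 1.92 (SD 1.72). MXD4 exceeded MXI1 on 5 of 5 arrays, by 0.26 to 2.06 with a mean of 0.65 (SD 0.79), or 0.30 without the 8 h array. An exact sign-flip test (two-sided) gave p = 0.0625 for each of these differences, the smallest that 5 arrays allow. After Benjamini-Hochberg adjustment over the 4 neighbouring pairs it was 0.125. The pairs and their direction came from the means of the same 5 arrays, which are successive harvests and not replicates. The sign-flip p-values therefore give no support to the order. MXD1 and MAX differed by 0.09 (SD 0.31) and MAX and MXD4 by 0.22 (SD 0.50), less than the spread between arrays, with 3 of 5 arrays in the direction of the mean and exact sign-flip p = 0.625 and 0.375. The difference between MYC and MXI1, which compete for MAX, was 0.68, 1.91, 3.92, 1.69 and 6.21 in order of harvest.

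The other genes of the network were described from lists, with probes of a gene averaged. Of all 8748 genes, 37.0% passed with a positive mean and 25.3% with a negative one, around a median of 0.14. That shift applies to every list value below. In the MYC family, MYCN and MYCL did not pass, at 0.25 (SE 0.16, limma adjusted p = 0.215) and 0.26 (SE 0.15, limma adjusted p = 0.169). MYCN was at 0.21, 0.51, -0.46, 0.32 and 0.65 in order of harvest and MYCL at -0.09, 0.30, 0.43, -0.29 and 0.95. MYCN passed without the 30 min array, at 0.42 (limma adjusted p = 0.0430), and MYCL without the 1 h array, at 0.40 (limma adjusted p = 0.0255).

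Of 6 measured genes for MAX and its partners, MGA passed with a positive mean, MXI1 with a negative one, and 4 did not pass. That was 16.7% on either side, against 37.0% and 25.3% of all genes. MGA, a very large MAX partner that acts as a repressor, was at 1.13, 2.10, 2.09, 1.11 and 2.15 in order of harvest, and at 0.26 on the self-self array. Its mean of 1.71 (SE 0.19, limma adjusted p = 0.000462) was near that of MYC, but its course was flatter, since it was already at percentile 94.8 at 0 min and changed by 1.02 up to 8 h. MNT, with values from 0.06 to 0.63, had a mean of 0.28 and did not pass (SE 0.12, limma adjusted p = 0.0739). With the self-self value subtracted MNT was at 0.34 and passed (limma adjusted p = 0.0411). MLX went from negative to positive values, at -0.62, -0.92, -0.76, -0.16 and 0.23, with a mean of -0.45 (SE 0.13, limma adjusted p = 0.0159). MLX did not pass without the 10 min array (limma adjusted p = 0.0833) or the 30 min array (limma adjusted p = 0.0806), in the fit without a slope (limma adjusted p = 0.0612) or with the self-self array in the fit (limma adjusted p = 0.506). MLXIP, its partner, was at 0.02 (SE 0.10, limma adjusted p = 0.870).

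**Figure D3:**
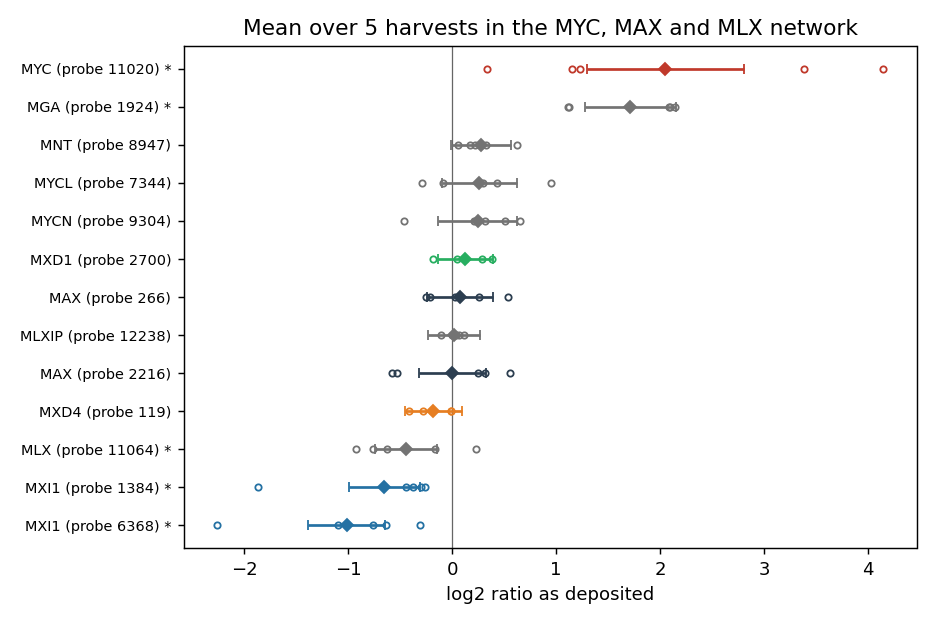
Mean log2 ratio over the 5 harvests (diamonds, horizontal axis) with limma's 95% interval (bars) and the 5 single arrays (open circles) for the 13 probes of MYC, MAX, MLX and their partners; an asterisk marks an adjusted p below 0.05. MYC at 2.05 and MGA at 1.71 lay on the positive side, MXI1 and MLX on the negative side, and the MAX, MXD1 and MXD4 intervals included 0.

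Genes for the machinery that MYC and its antagonists recruit lay on both sides. Of 14 measured cofactors of MYC, 7 passed as positive and 3 as negative, with a median of 0.36. BPTF, the large subunit of a nucleosome remodeller, was at 1.92 (SE 0.19), ZBTB17, the zinc finger partner through which MYC represses genes, at 1.80 (SE 0.36), and KAT5, a histone acetyltransferase, at 1.70 (SE 0.21). WDR5, which helps MYC onto chromatin, was at -1.36 (SE 0.16). ZBTB17 was at -0.04 at 1 h and between 1.59 and 2.98 at the other harvests. Of 10 measured genes of the SIN3 corepressor, which the MXD proteins recruit, 4 passed as positive and 2 as negative, with a median of 0.04. The SIN3 shares of 40.0% and 20.0% were near the 37.0% and 25.3% of all genes and do not set the list apart. Its largest means were those of ARID4B at 1.30 (SE 0.16) and the deacetylase HDAC1 at -0.91 (SE 0.15). The scaffold SIN3A at 0.50 (SE 0.15) and ING1 at 0.44 (SE 0.11) followed. With arrays centred on their medians the SIN3 counts were 2 and 3, without the 30 min array 1 and 1, and without the 10 min array 2 and 1. Without the 30 min array the cofactor counts were 7 and 1.

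Of 10 measured genes that act on MYC protein stability, 8 passed as positive and 2 as negative, with a median of 0.61. These were 80.0% and 20.0%, against 37.0% and 25.3% of all genes. USP36, a nucleolar deubiquitinase that stabilises MYC, was at 1.57, 2.02, 2.53, 1.15 and 3.43 in order of harvest, with a mean of 2.14 (SE 0.23). FBXW7, the ubiquitin ligase subunit that marks phosphorylated MYC for degradation, was at 1.07, 1.82, 1.21, 0.95 and 1.08, with a mean of 1.23 (SE 0.14). USP36 and FBXW7, with opposite roles for MYC protein, stood on the same side, as did most genes of the list. The ubiquitin ligase STUB1 was at -0.91 (SE 0.13) and TRIM32 at 0.81 (SE 0.15). Without the 8 h array 5 genes of this list passed on the positive side.

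Of 19 measured factors that bind MYC mRNA or the MYC promoter, 8 passed as positive and 3 as negative, with a median of 0.17. These were 42.1% and 15.8%, against 37.0% and 25.3% of all genes. With arrays centred on their medians the counts were 7 and 6. ZFP36L1, which binds AU-rich elements and promotes decay, was at 0.64, 0.57, 1.19, 0.62 and 2.78, with a mean of 1.16 (SE 0.18). FUBP1, which binds a far upstream element of the MYC gene, was at 0.92 (SE 0.13). NME2 and the RNA-binding protein YBX1 were at -1.09 (SE 0.18) and -1.02 (SE 0.13).

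Genes known to be activated by MYC lay mostly on the negative side, and MYC itself on the positive side. Emetine stops translation in treated cells, and actinomycin D was given to treated and untreated cells. A link between these genes and MYC was not tested. The list was chosen with earlier results of these data known. Of 29 measured, 21 passed as negative (72.4%, against 25.3% of all genes), 3 as positive (10.3%, against 37.0%) and 5 did not pass, with a median of -0.83. The list medians were -0.30, -1.10, -1.0, -0.78 and -0.82 in order of harvest, negative at every harvest and furthest from 0 at 10 min, on the array with the widest spread (robust SD 0.92). The largest were IMPDH2, an enzyme of guanine nucleotide synthesis, at -1.94 (SE 0.22), MAT2A, which makes S-adenosylmethionine, at -1.92 (SE 0.20), the spermidine synthase SRM at -1.73 (SE 0.18) and the mitochondrial chaperonin HSPD1 at -1.54 (SE 0.14). The 3 on the positive side, named after their values were seen, were ODC1, the first enzyme of polyamine synthesis, at 0.88 (SE 0.13), the mitochondrial transcription factor TFAM at 0.60 (SE 0.13) and NOLC1 at 0.34 (SE 0.11). The negative count was 19 to 21 without each harvest in turn, and 21 and 23 under the other scalings.

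Genes known to be repressed by MYC did not lie to one side. Of 17 measured, 5 passed as positive (29.4%, against 37.0% of all genes) and 6 as negative (35.3%, against 25.3%). The median was 0.03. With 17 genes these shares do not set the list apart from all genes. The stress gene GADD45B was at 4.29 (SE 0.62) and KLF6, a zinc finger factor, at 2.87 (SE 0.35), while the collagen chains COL1A1 and COL1A2 were at -1.68 (SE 0.17) and -0.99 (SE 0.14). Of 7 measured members of other E-box binding families, 5 passed as positive (71.4%, against 37.0% of all genes) and 0 as negative (against 25.3%). Their median was 0.34. They were led by TFAP4 at 1.17 (SE 0.18), TFE3 at 1.15 (SE 0.12), MITF at 0.56 (SE 0.12) and SREBF1 at 0.34 (SE 0.13). Without the 8 h array, 3 genes of each of these lists passed on the positive side, and 3 of the E-box binding families did without the 30 min array or with arrays centred on their medians.

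**Figure D4:**
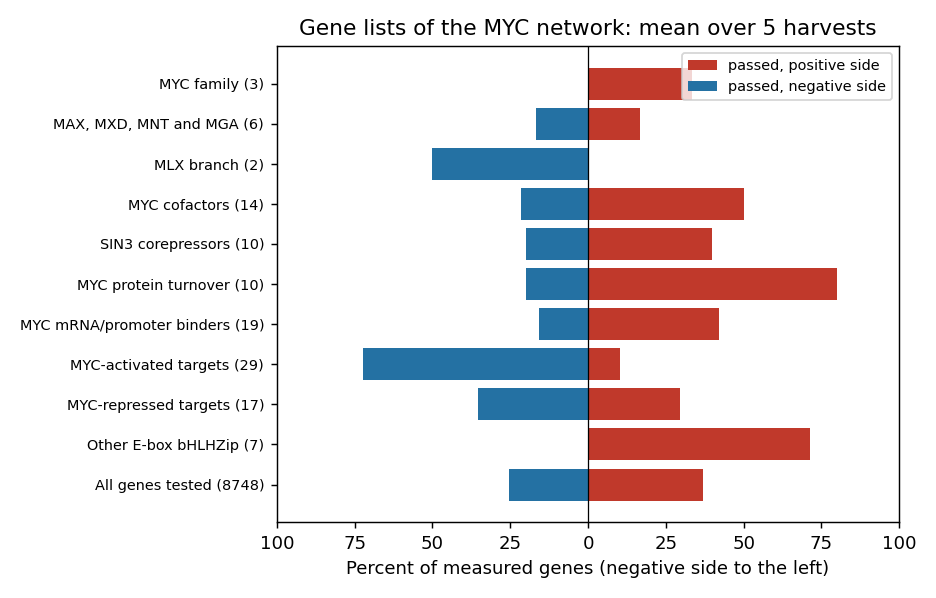
Percent of the measured genes of each list (number in brackets) whose mean over 5 harvests passed limma's adjusted p of 0.05, positive side to the right and negative side to the left of 0; the bottom bar gives all 8748 genes. Among genes activated by MYC 72.4% passed on the negative side, and among genes for MYC protein turnover 80.0% passed on the positive side.

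The genes with courses most like that of MYC were found by the root mean square difference of the log2 ratios over the 5 harvests, among 8748 genes. The nearest was ADM, the gene of the vasodilator peptide adrenomedullin, at a difference of 0.46. It was at 1.17, 1.59, 3.16, 1.53 and 4.35 in order of harvest, with the same dip at 1 h. RGS3, a regulator of G-protein signalling, followed at 0.61, CCN1, a matrix signalling protein encoded by an immediate-early gene, at 0.62, PNRC2, a factor of mRNA decapping, at 0.65 and ZSCAN9, a zinc finger protein, at 0.65. By Pearson correlation instead of distance, 0 of these 5 genes were among the nearest 5. Nearest to MXI1 were NRN1 at 0.21, ZNF395 at 0.22 and GPR161 at 0.25, all with their lowest value at 8 h, from -1.68 to -1.85. S1PR4, COL4A5 and EXOC1 were nearest to MAX (0.10 to 0.13), SP1, SYNGR2 and ITGA7 to MXD1 (0.07 to 0.08), and CDK4, NEK6 and ADI1 to MXD4 (0.03 to 0.08). By correlation, 0 of the 3 genes named for each of MAX, MXI1 and MXD1 were among the nearest 3. For MXD4 there was 1, CDK4, a cell cycle kinase and known MYC target. These genes share the arrays and their spread with the members, so likeness is a description only.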

How the data were processed

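Per the labels' protocols, the authors subtracted background from mean spot intensities, divided one channel by the other, normalised ratios within each slide on housekeeping genes and discarded ratios with a quality value below 0.5. The deposited table holds log2 ratios. The base was settled from the values: raised from log2, 99.5% to 100% of an array's values were whole when multiplied by 10000 (tolerance 0.05). Direction, scanner and software are not given in the sources used here, and the number of arrays limits precision. Each array repeats 1 value at 333 to 534 probes, treated as not measured. Symbols came from the platform annotation through gene IDs. limma 3.58.1 (R 4.3.3) estimated, over 5 arrays, the mean of 13151 probes and of 8748 genes together with a linear trend in centred log2(1 + min / 10), two-sided, with Benjamini-Hochberg adjustment over all at 0.05; both were tested on simulated data. The self-self range used 13091 probes measured on all 6 arrays.

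Members and lists were chosen with earlier results of these data known. Named were all member probes, the 4 genes of each list with the largest mean in size, and the 5 genes most like MYC and 3 most like each other member. The alternatives were centring, equal spread, keeping repeated values, leaving out each harvest, no slope, rank-ordered time, subtracting the self-self value or fitting it, other limits for the self-self range, and correlation as likeness. Promoter sequences are RefSeq's (GRCh38.p14).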

Additional observations from a re-analysis of the deposited data

How the results depend on the processing

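No paired analysis was possible because each harvest has 1 array and so no replicate numbers pair the harvests; differences between members were taken within arrays. The positive call of MYC and the negative calls of both MXI1 probes held under centring, equal spread, kept repeated values, no slope and a subtracted self-self value. With the self-self array in the fit MYC was at 2.10 and the MXI1 probes at -0.57 and -0.96, none passing; 0 probes passed as positive and 2 as negative, and of the members 0 on either side. Leaving out each harvest gave MYC 1.53 to 2.48, MXI1 probe 1384 -0.75 to -0.35 and 1 to 2 negative member calls. MAX, near 0, turned sign most: probe 266 was at -0.023 centred and -0.044 at equal spread, probe 2216 at -0.093, -0.097 and, with the self-self value subtracted or fitted, -0.031. Without a harvest they ran from -0.043 to 0.15 and from -0.14 to 0.15, the mean of MXD1 minus MAX from -0.0093 to 0.20, and the slope of MXD4 from -0.064 to 0.079. MXD4 passed at equal spread, at -0.27. The slope test called 1 probe centred, 29 at equal spread and 0 to 584 without a harvest. The MYC slope was 0.59 centred and 0.47 at equal spread, passing in neither, and 0.53 to 0.65 without a harvest. Without a harvest the slopes were -0.37 to -0.021 for MXI1 probe 1384 and -0.35 to -0.074 for probe 6368. Both MXI1 slopes were smallest in size without the 8 h array. A limit of 1 log2 unit left 952, 3628, 2748, 1087 and 3675 probes outside in order of harvest, and equal spread 331, 134, 228, 211 and 274. Why these values moved was not tested. The self-self level rests on 1 array, and the 0 min labels conflict.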
